A study of Mus musculus with 12 samples.

Results

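The genes described here encode the presynaptic machinery of the photoreceptor ribbon synapse, and were measured in retinas of Otx2 CKO mice and of control mice on Affymetrix mouse expression arrays. The 10 genes are *Cacna1f*, *Cacna2d4*, *Cabp4*, *Cplx4*, *Stx3*, *Ctbp2*, *Rims2*, *Bsn*, *Pclo* and *Cplx3*, among the 18194 gene symbols of the array, and all probe sets that carry 1 of these symbols and no other were taken, which gave 25 of the 45101 probe sets on the array. Of these, 7 probe sets belong to the 4 genes treated as photoreceptor-specific (*Cacna1f*, *Cacna2d4*, *Cabp4* and *Cplx4*), and 18 belong to the 6 genes that other neurons use as well. Whole retinas were collected at postnatal day 1 (P1) and postnatal day 12 (P12), with 3 arrays each of the P1 Otx2 CKO, P1 control, P12 Otx2 CKO and P12 control retina. Both genotypes carried *Otx2* flox/flox. The Otx2 CKO mice also carried the Crx-Cre transgene, which drives Cre recombinase from the *Crx* promoter in developing photoreceptors, while the control mice lacked it. Cells in which that promoter is not active, and has not been, keep the gene. Each value is a signal intensity in arbitrary units for 1 array, and changes are differences of log2(signal + 16), Otx2 CKO minus control, which understate the change of dim probe sets.

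Rods and cones release glutamate continuously in the dark, and do so at a synapse built around a ribbon, a plate that tethers vesicles above the active zone. Calcium enters through a channel formed by *Cacna1f* with the auxiliary subunit *Cacna2d4* and modulated by *Cabp4*. The ribbon itself consists mostly of RIBEYE, which *Ctbp2* encodes from its own start, and is held at the membrane by Bassoon (*Bsn*) together with Piccolo (*Pclo*) and the RIM protein of *Rims2*. Fusion uses syntaxin 3 (*Stx3*) in place of the syntaxin of conventional synapses, and complexins 3 and 4 (*Cplx3*, *Cplx4*) in place of complexins 1 and 2. Bipolar cells build ribbons too, so the name photoreceptor-specific is a working one. OTX2 and the related photoreceptor factor CRX recognise DNA with a TAATCC core.

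In the RefSeq annotation of the GRCm38.p6 build, *Cacna1f* lies at chrX:7607103-7635196, *Cacna2d4* at chr6:119236524-119352407, *Cabp4* at chr19:4135423-4144080, *Stx3* at chr19:11775118-11821569, *Ctbp2* at chr7:132986998-133124009, *Rims2* at chr15:39198286-39684372, *Bsn* at chr9:108096022-108190419, *Pclo* at chr5:14514906-14863465 and *Cplx3* at chr9:57599992-57606281. RefSeq promoter sequences, running from 250 bases before a start site to 50 bases after it, were at hand for 6 of the 10 genes, with 2 starts for *Ctbp2*. The 4 genes not matched were *Cacna2d4*, *Cabp4*, *Cplx4* and *Rims2*. The promoters were searched on both strands for TAATCC and for its first 5 letters, TAATC, which every TAATCC contains. TAATCC occurs in 7.06% and TAATC in 22% of the 32851 promoters of the same length, so a match is common and describes the sequence only. The promoters of *Stx3* and of the second *Ctbp2* start each held 1 TAATCC, and those of *Cacna1f* and *Cplx3* each held 1 TAATC that is not followed by C. Neither motif was found in the windows of *Bsn*, *Pclo* and the first *Ctbp2* start. The 4 promoters with a match are printed 5′ to 3′ on the gene's strand with the match in capitals and positions counted from 1 at the start site or from -1 just before it, because they belong to a gene that fell at P12 (*Cacna1f*, *Stx3*), to one whose call depended on the scaling (*Ctbp2*) and to one whose signals overlapped between the genotypes (*Cplx3*).
Cacna1f, chrX:7606853-7607152, plus strand, TAATC from position -26: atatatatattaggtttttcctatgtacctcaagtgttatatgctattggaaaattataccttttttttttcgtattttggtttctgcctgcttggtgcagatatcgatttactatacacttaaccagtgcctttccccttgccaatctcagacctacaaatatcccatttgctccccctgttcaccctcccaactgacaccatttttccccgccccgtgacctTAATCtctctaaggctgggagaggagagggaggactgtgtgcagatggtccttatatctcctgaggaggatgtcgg
Stx3, chr19:11819354-11819653, minus strand, TAATCC from position 31: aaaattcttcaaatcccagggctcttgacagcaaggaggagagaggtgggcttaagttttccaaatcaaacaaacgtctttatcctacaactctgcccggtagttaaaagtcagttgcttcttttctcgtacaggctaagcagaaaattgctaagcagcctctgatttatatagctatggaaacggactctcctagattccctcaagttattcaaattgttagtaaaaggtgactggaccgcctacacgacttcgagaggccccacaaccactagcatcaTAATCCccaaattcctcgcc
Ctbp2 second start, chr7:133015198-133015497, minus strand, TAATCC on the opposite strand, its leftmost base here at position -121: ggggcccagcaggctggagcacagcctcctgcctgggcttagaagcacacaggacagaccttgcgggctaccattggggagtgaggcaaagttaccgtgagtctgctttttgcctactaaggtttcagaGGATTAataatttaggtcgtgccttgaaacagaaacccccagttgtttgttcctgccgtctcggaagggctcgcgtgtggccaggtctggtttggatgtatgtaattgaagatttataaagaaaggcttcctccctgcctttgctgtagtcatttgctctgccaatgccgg
Cplx3, chr9:57606232-57606531, minus strand, TAATC from position -135: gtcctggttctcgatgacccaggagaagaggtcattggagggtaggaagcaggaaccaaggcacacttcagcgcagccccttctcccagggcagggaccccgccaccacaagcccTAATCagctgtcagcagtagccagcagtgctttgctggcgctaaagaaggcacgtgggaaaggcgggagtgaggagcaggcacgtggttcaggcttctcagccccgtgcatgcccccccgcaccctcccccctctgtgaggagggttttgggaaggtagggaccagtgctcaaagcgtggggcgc

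The arrays differed in brightness. Mean signals without the highest and lowest 2% of probe sets were 22.0 to 28.0 in the P1 Otx2 CKO retina, 28.7 to 30.3 in the P1 control retina, 108 to 172 in the P12 Otx2 CKO retina and 96.6 to 111 in the P12 control retina, with P12 Otx2 CKO array 1 the brightest. Genotypes were therefore compared on signals as deposited with quantile-normalized values beside them, and ages on quantile-normalized signals. As deposited, the median change of all 21390 probe sets tested at P12 was 0.39 and 75.7% of the probe sets called were higher, against 0.06 to 0.13 and 48.4% to 52.3% under 4 other scalings. *Otx2* itself measured 144, 108 and 154 in the P1 Otx2 CKO retina against 376, 358 and 283 in the P1 control retina, and 245, 167 and 108 in the P12 Otx2 CKO retina against 1058, 1048 and 803 in the P12 control retina. The deleted gene was thus lower on every Otx2 CKO array at either age, with log2 changes of -2.44 at P12 (limma adjusted p = 6.96e-05) and -1.23 at P1 (adjusted p = 0.207). The P1 change passed with the replicate number as a block, at limma adjusted p = 0.000785 as deposited and 0.0286 after quantile normalization. In these fits 0.847% and 0.561% of all probe sets tested at P1 were lower. In the fit as deposited the spread was pooled entirely over probe sets, so its p-value does not measure the spread of *Otx2* itself.

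At P12, the 4 photoreceptor-specific genes and *Stx3* were lower in the Otx2 CKO retina, *Bsn* was higher, and *Ctbp2*, *Rims2*, *Pclo* and *Cplx3* did not pass the test. A gene was represented by its brightest probe set, and a call meant a limma adjusted p under 0.05 among probe sets with a mean signal of at least 50 in 1 of the groups compared. Of the 10 genes, 5 were lower and 1 was higher, with a median log2 change of -1.81, while 4.54% of all probe sets tested were lower and 14.1% were higher. By probe set, 21 of the 25 were tested, of which 9 were lower and 1 was higher with a median of -0.997. All 7 photoreceptor-specific probe sets were lower (median -3.72), against 2 lower and 1 higher of the 14 tested for the other genes (median -0.58). The 7 reached the limit of 50 only in the P12 control retina, so a call for them could only be lower. After quantile normalization 6 of the 10 genes and 14 of 20 tested probe sets were lower and none higher (1 of each was higher at an unadjusted p under 0.05), where 8.45% of all probe sets tested were lower and 7.91% higher. The 14 lower probe sets were the same 7 photoreceptor-specific probe sets and 7 of the 13 tested for the other genes (medians -3.55 and -0.98). With the replicate number as a block, 6 genes were lower and 2 higher, where 7.26% and 36.3% of all probe sets were called.

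The same retinas were low in photoreceptor and bipolar cell markers. Summed signals of 5 rod markers were 269 to 914 in the P12 Otx2 CKO retina against 14550 to 21281 in the P12 control retina, and those of 6 cone markers were 221 to 357 against 3740 to 8192, with all 5 and all 6 lower by the test. For 4 bipolar cell markers, the sums were 288 to 746 in the Otx2 CKO retina and 3462 to 5319 in the control retina, with 2 of the 3 tested lower. The sums of 6 amacrine cell markers ran the other way, from 5529 to 8557 in the Otx2 CKO retina against 3338 to 4825 in the control retina, with 2 of 6 higher. Of the other lists, 2 of 4 Müller glia and 1 of 4 ganglion cell markers were higher, 2 of 3 horizontal cell markers were lower and 1 higher, 0 of 3 pigment epithelium markers were called, and none of 4 lens markers reached the limit. These sums and calls used signals as deposited. On these, 4.54% of all probe sets tested were lower and 14.1% higher, with a median change of 0.39. No marker had a group mean of 0. In RNA of the whole retina, fewer cells of a type and less RNA in each cell cannot be told apart, and the part of these shifts in the results below was not tested.

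The calcium channel genes had signals of 57.5 or less on every P12 Otx2 CKO array. *Cacna1f* (1449955_at) measured 57.5, 24.9 and 24.5 in the P12 Otx2 CKO retina against 438, 459.8 and 367 in the P12 control retina. The 2 groups did not overlap, and in the same-numbered pairs the Otx2 CKO signal was 0.131, 0.0542 and 0.0667 times the control signal. The log2 change was -3.14 (SE 0.257, limma adjusted p = 4.87e-06), and -3.18 after quantile normalization. At P12, 5.41% of all probe sets tested had every Otx2 CKO array below every control array.

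The auxiliary subunit *Cacna2d4* has 3 probe sets, and all of them fell. The brightest (1441084_at) measured 29.1, 26.5 and 14.4 in the P12 Otx2 CKO retina against 393, 575 and 451 in the P12 control retina (log2 change -3.64, SE 0.231, limma adjusted p = 8.77e-07). A second (1442863_at) measured 17.9, 4.8 and 4.3 against 259, 285 and 376 (-3.72, adjusted p = 1.02e-06), and the dimmest (1457703_at) 52.6, 14.9 and 25.8 against 295, 301 and 251 (-2.74, adjusted p = 2.89e-05). On each probe set, the highest Otx2 CKO signal came from array 1 and stayed below the lowest control signal. 

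*Cabp4*, whose calmodulin-like product binds the channel and sets the voltage at which it opens, had the largest changes among the 21 tested probe sets as deposited. Its brighter probe set (1456936_at) measured 20.2, 14.7 and 7.3 in the P12 Otx2 CKO retina and 307, 951 and 451 in the P12 control retina, and the other (1425878_at) measured 17.6, 13.7 and 3.2 and 333, 662 and 458. The control arrays spread widely here, with array 2 the highest on each probe set, yet the lowest control signal was far above the highest Otx2 CKO signal. The log2 changes were -4.15 (SE 0.331, limma adjusted p = 3.94e-06) and -4.17 (SE 0.270, adjusted p = 9.45e-07). With an offset of 16 these values are bounded by the dim signals on the Otx2 CKO side, and the plain ratios of the same-numbered pairs were 0.0658, 0.0155 and 0.0162 on the first and 0.0529, 0.0207 and 0.00699 on the second.

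*Cplx4* (1451590_at), a complexin that binds the assembled fusion complex in photoreceptor terminals, measured 61.5, 28.4 and 24.9 in the P12 Otx2 CKO retina and 717, 749 and 817 in the P12 control retina. The control arrays were close to each other, and the Otx2 CKO signals were 0.0857, 0.0379 and 0.0305 times those of the same-numbered control arrays. The log2 change was -3.90 (SE 0.257, limma adjusted p = 1.02e-06). For all 7 photoreceptor-specific probe sets the P12 call remained under each of the 4 other scalings, the other offsets and signal limits, the replicate block, and the omission of any array.

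**Figure D1:**
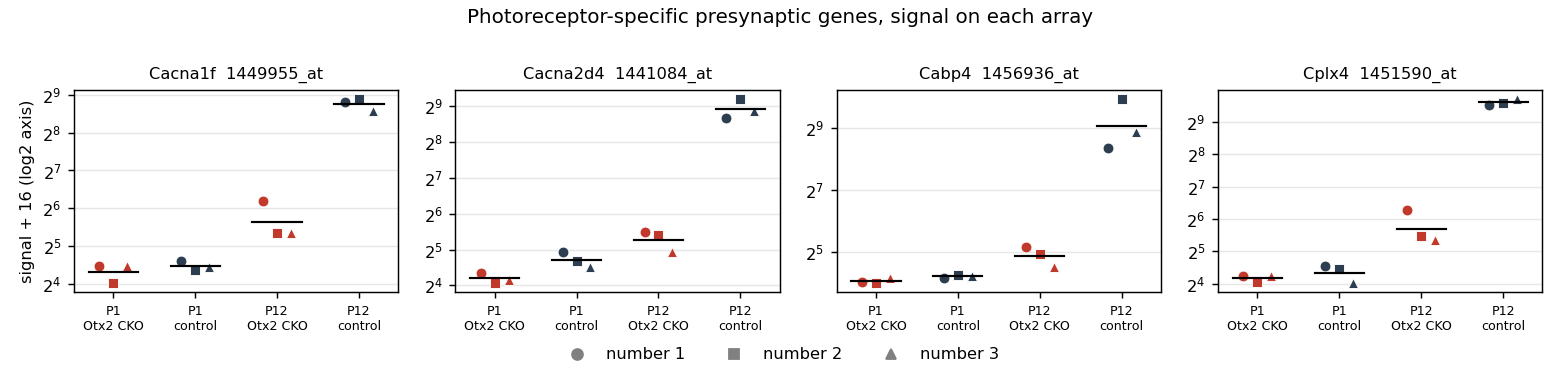
Signal + 16 on a log2 axis for the brightest probe set of *Cacna1f*, *Cacna2d4*, *Cabp4* and *Cplx4* on each of the 12 arrays, with Otx2 CKO arrays in red, control arrays in dark blue, marker shapes for the replicate number and bars at the mean of the log2 values. The 3 P12 control arrays stand above all other arrays in each panel, from 307 to 951 for *Cabp4* against 7.3 to 20.2 in the P12 Otx2 CKO retina.

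*Stx3*, the syntaxin of ribbon terminals, is also used by epithelial and other cells, and was the only gene outside the photoreceptor-specific set that fell on signals as deposited. Its brightest probe set (1425530_a_at) measured 532, 318 and 369 in the P12 Otx2 CKO retina against 2107, 3003 and 3042 in the P12 control retina, and 1426151_a_at measured 96.0, 50.1 and 53.3 against 449, 501 and 512. Neither overlapped between the genotypes, and the log2 changes were -2.71 (SE 0.273, limma adjusted p = 2.86e-05) and -2.65 (SE 0.224, adjusted p = 6.55e-06). Unlike the channel genes, *Stx3* kept a signal well above the limit of 50 in the P12 Otx2 CKO retina on 1425530_a_at. Its control signal there was also far brighter than theirs. After quantile normalization, the log2 ratios of its same-numbered pairs were -3.14, -2.82 and -3.25. Those of *Cacna1f* were -3.32, -3.05 and -3.18, and those of *Cacna2d4* (1441084_at) were -3.63, -3.27 and -3.76. Another probe set (1425536_at) measured 466, 82.6 and 125 against 1600.3, 255 and 561. Here the arrays of number 1 were high and those of number 2 low in both genotypes, so the groups overlapped and the change of -1.75 (SE 0.620) had a limma adjusted p of 0.0685, and of 0.0344 after quantile normalization (-2.10). Within the same-numbered pairs the ratios were 0.291, 0.324 and 0.222, and the adjusted p was 1.45e-10 with the replicate block. In the blocked fit as deposited, here and for the genes below, the spread was pooled entirely over probe sets. Its p-values therefore do not measure the spread of the single probe set, and 7.26% of all probe sets were lower and 36.3% higher in it at P12. The fourth (1434559_at) stayed below the limit of 50 in mean signal, at 16.8, 3.8 and 3.1 in the P12 Otx2 CKO retina and 50.4, 35.9 and 35.1 in the P12 control retina, and was not tested.

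*Ctbp2* and *Rims2* had lower mean signals in the P12 Otx2 CKO retina, but as deposited neither passed the test. *Ctbp2* encodes both RIBEYE and a nuclear corepressor with a shared carboxy-terminal part, and these probe sets were not assigned to either product. On 1434705_at the signals were 1800.2, 981 and 1223 in the P12 Otx2 CKO retina and 1484, 2108 and 2039.5 in the P12 control retina, with Otx2 CKO array 1 inside the control range (log2 change -0.51, SE 0.242, limma adjusted p = 0.155). On 1422887_a_at they were 792, 254 and 345 and 1024, 759 and 761, again with Otx2 CKO array 1 inside the control range (-0.997, SE 0.332, adjusted p = 0.0540). That array is the brightest of the series. After quantile normalization both probe sets were lower, by log2 changes of -0.79 (limma adjusted p = 0.00608) and -1.31 (adjusted p = 0.00600). Without that array and as deposited, both were also lower, by -0.75 (adjusted p = 0.0442) and -1.45 (adjusted p = 0.00126). The normalized ratios of the same-numbered pairs were alike, at 0.638, 0.544 and 0.559 on the first and 0.388, 0.408 and 0.416 on the second. As deposited, the replicate block gave adjusted p = 0.00102 for 1422887_a_at and 0.106 for 1434705_at.

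*Rims2*, whose RIM protein ties vesicles and calcium channels to the active zone, was measured by 3 probe sets above the limit. The brightest (1436470_at) gave 319, 135 and 157 in the P12 Otx2 CKO retina against 689, 167 and 443 in the P12 control retina. Control array 2 was low and lay inside the Otx2 CKO range, and the log2 change of -0.92 (SE 0.446) had a limma adjusted p of 0.168. The other 2 changed by -0.64 (1422809_at, adjusted p = 0.237) and -0.81 (1450761_s_at, adjusted p = 0.180). After quantile normalization these 2 were lower, by -0.98 (adjusted p = 0.0452) and -1.12 (0.0321), and 1436470_at changed by -1.29 (0.0628). As deposited, 1436470_at was lower without P12 control array 2 (-1.47, adjusted p = 0.0139), and 1450761_s_at without P12 Otx2 CKO array 1 (-1.28, 0.0279). In each of the 3 same-numbered pairs every one of these probe sets was lower in the Otx2 CKO retina, with ratios of 0.463, 0.810 and 0.353 on 1436470_at, a pattern found in 9.04% of all probe sets tested. With the replicate block their adjusted p-values were 0.000852 for 1436470_at, 0.0194 for 1422809_at and 0.00189 for 1450761_s_at. The remaining 2 probe sets of *Rims2*, 1443215_at and 1432102_at, did not reach a mean of 50 in any group and were not tested.

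The large scaffold genes *Bsn* and *Pclo* did not share the decrease. On its brightest probe set (1436123_at), *Bsn* measured 508, 514 and 279 in the P12 Otx2 CKO retina and 168, 315 and 119 in the P12 control retina. Otx2 CKO array 3 lay below control array 2, so the groups overlapped, and the log2 change of 1.10 (SE 0.328) passed the test with a limma adjusted p of 0.0344. This call was lost under each of the 4 other scalings (0.76, adjusted p = 0.110, after quantile normalization) and, at adjusted p of 0.0503 to 0.144 and changes of 0.81 to 1.10, when P12 Otx2 CKO array 1 or 2, P12 control array 1 or 3, P1 Otx2 CKO array 3 or any P1 control array was left out. With quantile normalization and the replicate block the adjusted p was 0.00210, where 16.3% of all probe sets were lower and 21.4% higher. A second probe set of *Bsn* (1450467_at) measured 77.7, 75.1 and 55.9 against 93.5, 77.4 and 59.6, lower in each same-numbered pair and not called (-0.11, SE 0.211, adjusted p = 0.725). The probe sets of *Bsn* therefore disagreed in sign. The third (1422023_at) had no signal above 32.1 and was not tested.

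*Pclo* varied more between the numbers than between the genotypes. The brightest probe set (1419392_at) measured 746, 135 and 300.1 in the P12 Otx2 CKO retina and 353, 84.7 and 259 in the P12 control retina, with array 1 the highest and array 2 the lowest in both. The log2 changes were 0.61 (SE 0.555, limma adjusted p = 0.450) on this probe set, 0.82 (adjusted p = 0.353) on 1455373_at and 0.38 (adjusted p = 0.539) on 1452423_at. Leaving out 1 array moved the first to between 0.011 (without P12 Otx2 CKO array 1) and 1.18 (without P12 Otx2 CKO array 2), and the second to between 0.16 and 1.44 on the same 2 omissions, with neither called. All 3 were higher in the Otx2 CKO retina in each same-numbered pair as deposited, which holds for 49.2% of all probe sets tested. The replicate block gave adjusted p = 0.0356 for 1419392_at and 0.000674 for 1455373_at, and after quantile normalization with the block 0.383 and 0.0794.

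*Cplx3* (1424606_at), the other complexin of ribbon terminals, which some amacrine cells also express, measured 1822, 1697 and 1453 in the P12 Otx2 CKO retina and 1087, 2402 and 1725 in the P12 control retina. The Otx2 CKO arrays lay within the control range. The log2 change was -0.00167 with a 95% interval of -0.61 to 0.61 (SE 0.282, limma adjusted p = 0.997), and -0.27 with an interval of -0.68 to 0.14 after quantile normalization (adjusted p = 0.383). The interval for its relative *Cplx4* on the same arrays was -4.46 to -3.34.

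**Figure D2:**
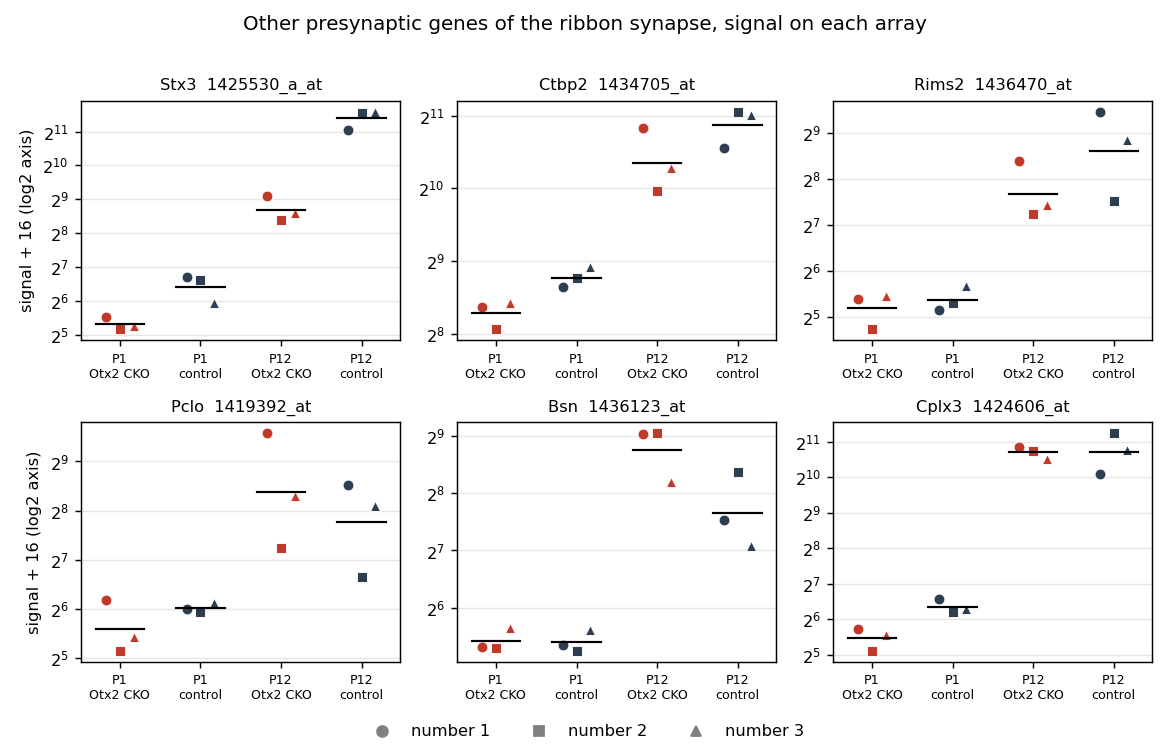
Signal + 16 on a log2 axis for the brightest probe set of *Stx3*, *Ctbp2*, *Rims2*, *Pclo*, *Bsn* and *Cplx3* on each of the 12 arrays, with colours, marker shapes and mean bars for genotype, replicate number and group as in the panels of the photoreceptor-specific genes. At P12 the genotypes are apart for *Stx3*, from 318 to 532 in the Otx2 CKO retina against 2107 to 3042 in the control retina, and overlap for the other 5 genes.

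**Figure D3:**
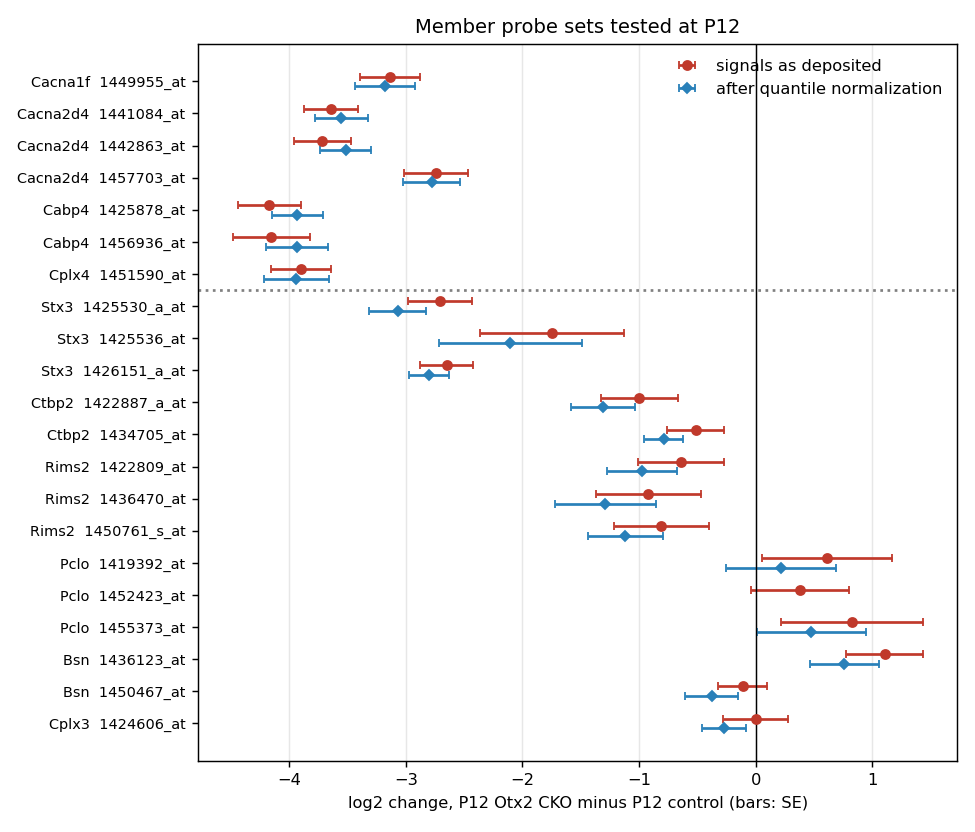
Log2 change at P12, Otx2 CKO minus control, with SE bars for the 21 tested probe sets, on signals as deposited (red circles) and after quantile normalization (blue diamonds), with the 7 photoreceptor-specific probe sets above the dotted line. Those 7 lie between -4.17 and -2.74 as deposited, and 1452423_at of *Pclo* has no normalized value because its mean was then under the limit.

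**Figure D4:**
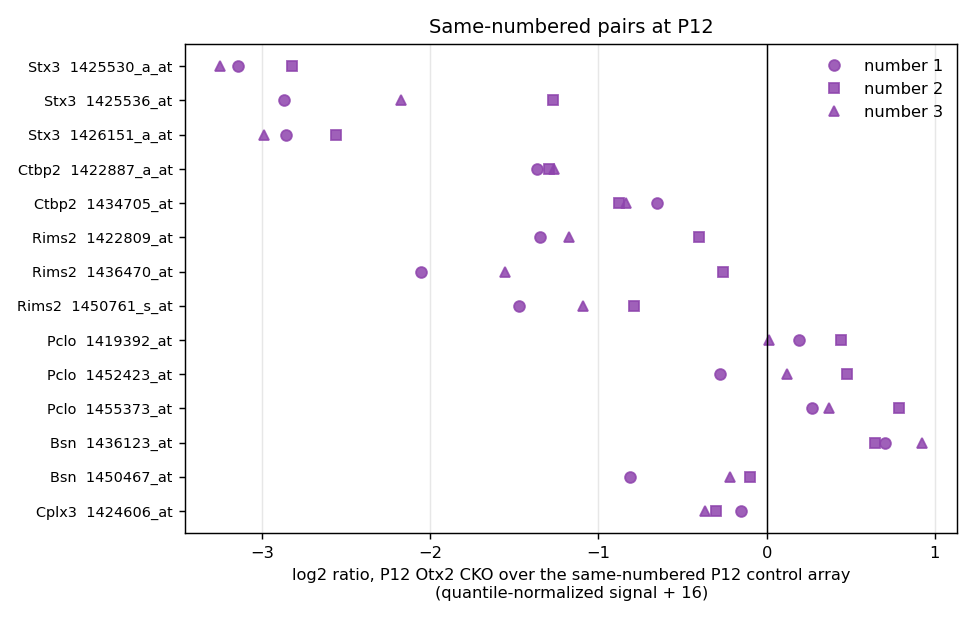
Log2 ratio of quantile-normalized signal + 16, P12 Otx2 CKO over the P12 control array of the same number, for the 14 tested probe sets of the 6 other genes, with 1 marker shape for each number. All 3 pairs are below 0 for *Stx3*, *Ctbp2*, *Rims2*, *Cplx3* and 1450467_at of *Bsn*, and above 0 for 1436123_at of *Bsn* and for 1419392_at and 1455373_at of *Pclo*, against 26.2% and 37.2% of all probe sets with 3 pairs below and above 0.

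At P1 the ribbon synapse has not yet formed, and only *Ctbp2*, *Cplx3* and *Stx3* had a probe set with a mean signal of at least 50 in 1 of the groups. None of these 3 genes passed the test (2 had an unadjusted p under 0.05). Of all 8384 probe sets tested, 0.179% were lower and 0% higher. Before adjustment, the limma p was below 0.05 for 139 probe sets with a negative change and for 6 with a positive one. *Stx3* (1425530_a_at) measured 30.0, 19.5 and 22.3 in the P1 Otx2 CKO retina against 87.8, 81.7 and 45.3 in the P1 control retina (log2 change -1.10, SE 0.275, limma adjusted p = 0.376). *Cplx3* measured 36.6, 18.6 and 31.6 against 80.2, 58.6 and 61.8 (-0.90, SE 0.283, adjusted p = 0.915). Each was lower on every Otx2 CKO array than on any control array, as were 1425536_at of *Stx3* and both probe sets of *Ctbp2*, which at P1 held for 22% of all probe sets tested. With the replicate block, the adjusted p was 0.00491 for *Stx3* and 0.0808 for *Cplx3*, where 0.847% of all probe sets were lower, and with quantile normalization and the block 0.0115 and 0.0107, where 0.561% were lower. *Ctbp2* (1434705_at) measured 316, 250.3 and 327 against 384, 418 and 465 (-0.49, adjusted p = 0.915). Rod markers summed to 6.0 to 31.8 in the P1 Otx2 CKO retina and to 274 to 396 in the P1 control retina, and the median change of all probe sets tested at P1 was -0.20.

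The photoreceptor-specific genes were dim at P1 in both genotypes, so their P1 change was not tested. *Cacna2d4* (1441084_at) measured 4.5, 0.7 and 1.9 in the P1 Otx2 CKO retina and 14.8, 9.5 and 7.0 in the P1 control retina, and *Cacna1f* 6.2, 0.2 and 6.1 and 8.3, 4.5 and 5.7. *Cplx4* measured 2.7, 0.5 and 2.8 in the P1 Otx2 CKO retina and 7.3, 6.1 and 0.2 in the P1 control retina, and *Cabp4* (1456936_at) 0.5, 0.1 and 1.9 and 2.2, 3.3 and 2.9. All 3 probe sets of *Cacna2d4* were lower in each same-numbered pair at signals of 15.4 or less, as were 44.3% of the probe sets tested at P1. After quantile normalization they were again lower in each pair, as were 10.9% of the probe sets tested. The probe sets tested are those that reached the limit, which *Cacna2d4* did not. *Bsn* (1436123_at) was also under the limit, at 23.7, 23.1 and 33.7 and 24.7, 21.8 and 32.9, with overlapping groups.

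By the test of the difference itself, the genotype change in log2(signal + 16) differed between the ages for 5 of the 10 genes. For all 5 the genotype change was more negative at P12 than at P1 (4 photoreceptor-specific genes and *Stx3*, 9 of the 21 probe sets tested). The 4 photoreceptor-specific genes reached the limit only in the P12 control retina. Their P1 signals of 15.4 or less lie under the offset of 16, which holds their P1 change near 0. For them this test largely repeats the P12 change, and cannot tell whether the ratio of the genotypes differed between the ages. Among all 21530 probe sets tested, 1.79% had a lower and 3.08% a higher difference, with a median of 0.53. The difference on the log2 scale was -3.99 for *Cabp4* (SE 0.468, limma adjusted p = 0.000424), -3.72 for *Cplx4* (0.000159), -3.12 for *Cacna2d4* (0.000235) and -2.99 for *Cacna1f* (0.000524). For *Stx3* it was -1.60 on 1425530_a_at (SE 0.386, adjusted p = 0.0339), a call lost at adjusted p of 0.0547 to 0.106 when P12 Otx2 CKO array 2 or 3, P12 control array 3 or any P1 array was left out, and -2.44 on 1426151_a_at (adjusted p = 0.000799), which was called in each of those refits. With an offset of 1 instead of 16, only *Cabp4* of the 10 genes remained called on its brightest probe set, and *Stx3* remained called on 1426151_a_at. *Cplx3* had a difference of 0.89 (SE 0.399, adjusted p = 0.193) and *Bsn* of 1.09 (0.175). With the replicate block *Bsn* (0.00918) and *Pclo* (0.0141) passed, where 28.9% of all probe sets were higher.

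Between P1 and P12 the control retina gained signal for 8 of the 10 genes on quantile-normalized values (median log2 change 2.87, P12 minus P1), where 19.5% of the 17636 probe sets tested were higher and 19.6% lower. The photoreceptor-specific genes were higher at P12 by 4.36 for *Cplx4* (SE 0.276, limma adjusted p = 2.11e-07), 3.90 for *Cabp4* (3.55e-07), 3.27 for *Cacna1f* (1.17e-06) and 3.02 for *Cacna2d4* (7.34e-07). They reached the signal limit only in the P12 control retina, so the limit fixed the direction of their change. *Stx3* was higher by 3.44 (5.79e-07), *Cplx3* by 2.72 (4.20e-07), *Rims2* by 1.94 (0.00359) and *Bsn* by 0.87 (0.0344). *Ctbp2* (0.43, adjusted p = 0.0588) and *Pclo* (0.34, adjusted p = 0.597) did not pass. On signals as deposited all 10 genes were higher, *Ctbp2* by 2.10 (7.68e-06) and *Pclo* by 1.74 (0.0106), where 82.7% of all probe sets were higher with a median of 1.45. The normalized *Bsn* call was lost when P1 control array 1, P1 control array 2 or P12 control array 2 was left out (adjusted p 0.0932 to 0.118).

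In the Otx2 CKO retina, the photoreceptor-specific genes stayed under the limit at P12 and at P1 on the normalized scale, and 3 of the 6 other genes were higher at P12, where 14.3% of the 17252 probe sets tested were higher and 13.3% lower. *Cplx3* was higher by 3.32 (SE 0.188, limma adjusted p = 2.19e-07), *Stx3* by 1.49 (SE 0.248, adjusted p = 0.000828) and *Bsn* by 1.41 (SE 0.297, adjusted p = 0.00390). *Pclo* (0.87, adjusted p = 0.194), *Rims2* (0.70, 0.261) and *Ctbp2* (-0.07, 0.794) did not pass. On signals as deposited all 6 genes were higher, where 96.2% of all probe sets were higher with a median of 1.85. The age comparisons use the same P1 and P12 arrays as the genotype comparisons and are not independent of them.

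Other genes of the photoreceptor terminal were lower at P12 as well. Of a list of 10, 7 were lower by limma and 0 higher (median -2.67), where 4.54% of all probe sets tested were lower and 14.1% higher. Before adjustment, a p under 0.05 was reached by 8 in the lower and 0 in the higher direction. These counts were not set against the shares of all probe sets at an unadjusted p. *Slc17a7*, the vesicular glutamate transporter of photoreceptors, measured 44.7, 29.9 and 21.5 in the P12 Otx2 CKO retina against 1259, 1899 and 994 in the P12 control retina (log2 change -4.84, limma adjusted p = 5.85e-07). The membrane scaffold *Mpp4* measured 134, 67.6 and 41.2 against 2718, 3119.6 and 2344 (-4.93, 1.14e-06). *Lrit1*, a leucine-rich repeat protein of photoreceptors, changed by -4.63 (5.85e-07) and *Egflam*, which encodes pikachurin in the synaptic cleft, by -3.75 (1.04e-05). At P1, 4 of the 10 were bright enough to test and 2 were lower, where 0.179% of all probe sets tested were lower. These were *Egflam* by -1.94 (0.0421) and *Unc119* by -1.47 (0.0101). The *Egflam* call at P1 was lost when any P1 array, P12 control array 3 or P12 Otx2 CKO array 1 was left out (adjusted p 0.0506 to 0.303), with an offset of 50 (-1.04, 0.969) and with no signal limit (0.188). *Dlg4*, *Sv2b* and *Atp2b1* did not pass at P12.

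A second list held relatives of the members at conventional synapses together with other active zone genes, and most of these genes were not called lower. Of 27 such genes with a probe set, 26 were tested at P12, 3 were lower and 7 higher, with a median of 0.66 as deposited, and 3 were lower and 4 higher of 24, with a median of 0.33, after quantile normalization. Among all probe sets tested, 4.54% were lower and 14.1% higher as deposited (median 0.39). After quantile normalization 8.45% of all were lower and 7.91% higher (median 0.066). The lower ones were *Cabp5* (-4.51, limma adjusted p = 8.23e-07), a calcium-binding protein of bipolar cells that is also in the bipolar marker list, its relative *Cabp2* (-2.25, 1.06e-05) and the vesicle priming gene *Unc13b* (-1.34, 0.0128). Beside *Stx3*, *Stx1a* of conventional synapses measured 557, 425 and 466 in the P12 Otx2 CKO retina against 197, 295 and 239.6 in the P12 control retina (0.95, 0.0103). Beside *Cacna2d4*, the relative *Cacna2d3* measured 1573, 796 and 734 against 337, 422 and 322 (1.40, 0.00405). The groups did not overlap for either gene, as for the 20.8% of all probe sets with every Otx2 CKO array above every control array, and either call remained after quantile normalization. Of the L-type channel genes related to *Cacna1f*, *Cacna1c* was higher by 1.51 (0.000797) and *Cacna1d* by 1.05 (0.0451), the second not called after quantile normalization (0.0793) and lost when any array but P12 Otx2 CKO array 2 or P1 Otx2 CKO array 1 was left out (adjusted p 0.0518 to 0.129, lowest change 0.64 without P12 Otx2 CKO array 1). *Ctbp1* was higher by 0.82 (0.0348), a call lost when any array but P12 Otx2 CKO array 3 or P12 control array 2 was left out (adjusted p 0.0512 to 0.123), under trimmed mean and spike scaling (0.50 and 0.54), with no signal limit and in the P12 arrays alone (0.235). *Cplx1* (0.36), *Cplx2* (0.60), *Cacna2d1* (0.65) and *Cacna2d2* (0.65) did not pass, while with the replicate block *Cplx2* (adjusted p = 0.0497), *Cacna2d1* (0.0158) and *Cacna2d2* (0.0314) did. *Rims1* did not pass (0.10, and -0.23 after quantile normalization). The remaining genes that were higher were *Erc1* (1.10) and *Cacna1a* (1.07), neither of them called after quantile normalization.

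**Figure D5:**
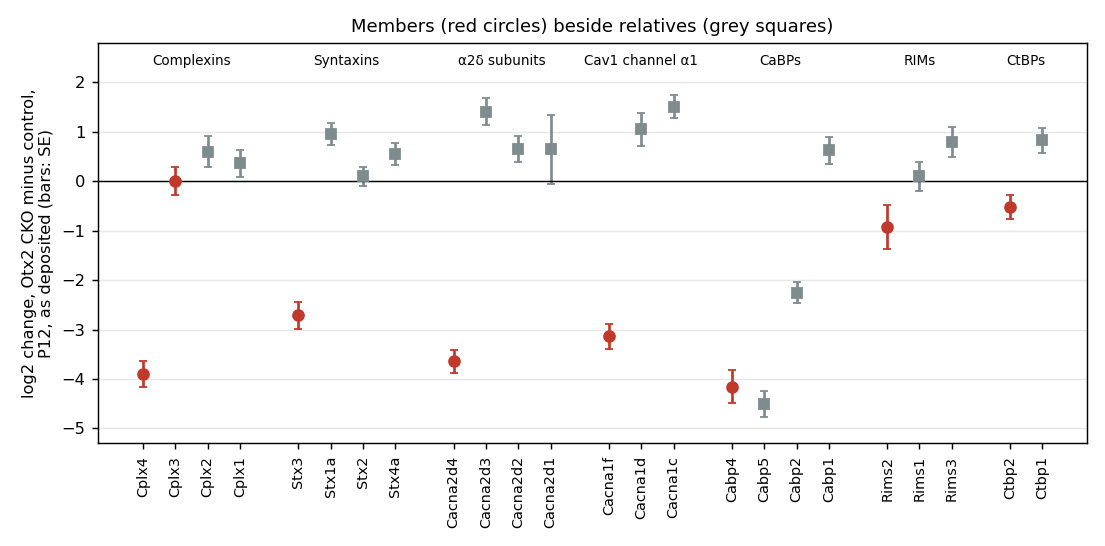
Log2 change at P12, Otx2 CKO minus control, as deposited, with SE bars, for members of the ribbon synapse set (red circles) beside relatives of the same gene family (grey squares). *Stx3* lies at -2.71 with *Stx1a* at 0.95, and *Cacna2d4* at -3.64 with *Cacna2d3* at 1.40.

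The 4 photoreceptor-specific genes had profiles close to each other over the 12 arrays. Likeness was the root mean square difference between log2 profiles centred on their own means, among up to 18798 named probe sets with a mean of at least 50 in 1 group. Counting from the nearest, the other photoreceptor-specific genes ranked 16 to 89 for *Cacna1f*, 15 to 56 for *Cacna2d4*, 20 to 41 for *Cabp4* and 24 to 37 for *Cplx4*. *Stx3* ranked 102 to 417, *Rims2* 538 to 1110 and *Ctbp2* 967 to 1139. *Cplx3* ranked 3404 to 13046, *Pclo* 9008 to 13631 and *Bsn* 10650 to 13720. The nearest genes were *Fam161a* (0.19), *Asic3* (0.20) and *D430042O09Rik* (0.24) for *Cacna1f*, and *Fabp12* (0.18), *Hs3st3b1* (0.24) and *Kcne2* (0.25) for *Cacna2d4*. For *Cabp4* they were *Slco4a1* (0.12), *AI847159* (0.16) and *Esrrb* (0.18), and for *Cplx4* *Ankrd33* (0.29), *Kcnv2* (0.31) and *Rgs9bp* (0.32). These values describe 12 arrays that also differ in age and brightness, and say nothing on shared function.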

How the data were processed

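Total RNA of mouse retinas at P1 and P12 was converted to biotin-labelled cRNA by the submitters and hybridized to Affymetrix mouse genome arrays, 12 in all with 3 in each group. The deposited values are signal intensity on a linear scale for each of 45101 probe sets, which the authors computed with GeneChip Operating Software. The scaling target is not given in the sources used here. Groups followed titles, source names and genotypes. The free-text descriptions of some arrays name the other genotype and were not used. The labels number 3 experiments per group and do not say how many animals each holds, so p-values measure the spread between these arrays.

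Probe sets were named from GEO's platform annotation (34958 with 1 symbol, 932 with several, 9211 without) and 64 control probe sets were left out. Signals were tested with limma 3.58.1 in R 4.3.3 on log2(signal + 16), with 1 model of 4 groups over the 12 arrays, moderated variances with a trend, a mean signal of at least 50 in 1 of the groups compared, and Benjamini-Hochberg adjustment over all tested probe sets at 0.05. Genotypes and the difference of their changes used signals as deposited, and ages used signals after quantile normalization. Standard errors and 95% intervals are from the same fits. The procedure was tested on simulated data with independent noise. Those data had no differences in brightness between arrays and no shared deviation of same-numbered arrays, so its behaviour under these was not tested. The number of arrays limits the precision.

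Same-numbered arrays of the 2 genotypes deviated together from their group means (correlations 0.15 to 0.23 at P1 and 0.58 to 0.91 at P12), so the number was treated as a pairing and added as a block in an alternative fit. Other alternatives were 4 scalings, offsets of 1 and 50, no signal limit and a limit of 100, no variance trend, fits of 1 age, and the omission of each array. The fits that combine quantile normalization with the block, and that leave out both P12 arrays of number 2, were added after the data were seen. Every member is named. From the 2 lists of other synaptic genes, the 4 of each with the largest calls and the direct relatives of members are named, and any others were named after their values were seen. The members, lists and markers were chosen with earlier results of these data known.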

Additional observations from a re-analysis of the deposited data

Results flagged for a closer look

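The genotype change at P12 differed from that at P1, by the test of the difference itself on signals as deposited, for 9 probe sets of the ribbon synapse genes. On the log2 scale the differences were -3.99 and -4.18 for *Cabp4*, -3.72 for *Cplx4*, -3.12, -3.07 and -2.38 for *Cacna2d4*, -2.99 for *Cacna1f*, and -1.60 and -2.44 for *Stx3*. Their limma adjusted p-values ran from 0.000119 to 0.0339. The 7 probe sets of the photoreceptor-specific genes had P1 signals of 15.4 or less on every array of either genotype, and on 1425530_a_at of *Stx3* the P1 signals were 30.0, 19.5 and 22.3 in the Otx2 CKO retina and 87.8, 81.7 and 45.3 in the control retina.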

How the results depend on the processing

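Each P12 call of the photoreceptor-specific genes and of *Stx3* held on its brightest probe set under every alternative run. Of 517 member values recomputed at P12, 456 kept their direction and side of the threshold, 15 lost the call, 39 gained one and 7 changed sign. With the replicate block as deposited, 1 gene was lower at P1, 2 genes were higher at P12 and 2 had a higher difference between the ages, while quantile normalization with the block gave 2 lower genes at P1 and 1 higher difference. In the blocked fit as deposited the variance estimates were pooled entirely over probe sets (the prior degrees of freedom were infinite). The 1 higher gene at P12, *Bsn*, became 0 under both quantile normalizations, scaling to the trimmed mean or to the spiked-in controls, an offset of 1, no signal limit, and the 6 P12 arrays alone. With an offset of 1, 1 gene had a lower difference between the ages. Counting probe sets in place of genes gave 9 lower at P12, 9 with a lower difference and 14 higher with age in the control retina. Across the ages the same number marks different animals, and with it as a block 9 genes were higher in the control retina and 4 in the Otx2 CKO retina. In the Otx2 CKO retina, 6 genes were higher with age as deposited and 5 after scaling to the spiked-in controls. With 1 array left out, 5 to 6 genes were lower and 0 to 1 higher at P12, 4 to 5 had a lower and 0 to 2 a higher difference, 7 to 9 were higher with age in the control retina and 3 in the Otx2 CKO retina. The cause of these shifts was not tested.

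The sign changes concerned values that did not pass the test in the comparison as reported. With 1 array left out at a time, the P12 change of *Cplx3* ran from -0.30 to 0.27, of *Rims1* from -0.15 to 0.34, of *Bsn* 1450467_at from -0.25 to 0.016, of *Cacna2d1* from -0.12 to 1.34 and of *Pclo* 1452423_at from -0.074 to 0.79. The difference between the ages ran from -0.031 to 0.83 for *Pclo* 1452423_at and from -0.26 to 0.17 for *Ctbp2* 1434705_at. The change with age ran from -0.056 to 0.85 for *Pclo* 1419392_at in the control retina, and in the Otx2 CKO retina from -0.16 to 0.098 for *Ctbp2* 1434705_at, from -0.16 to 0.20 for *Rims2* 1422809_at and from -0.097 to 0.61 for *Stx3* 1425536_at. Without both P12 arrays of number 2, *Cplx3* was 0.25 at P12. *Rims1* at P12 was -0.23 under both quantile normalizations and under quantile normalization with the block, and -0.21 and -0.17 under the trimmed mean and spike scalings. *Ctbp1* at P1 was 0.12, 0.14, 0.15 and 0.21 under the 4 scalings and 0.12 with quantile normalization and the block. With age in the Otx2 CKO retina, as deposited and under spike scaling, *Ctbp2* 1434705_at was 2.07 and 0.42, *Ctbp2* 1422887_a_at 1.81 and 0.24, and *Rims2* 1422809_at 1.77 and 0.51, the last also 0.023 under trimmed mean scaling. Signals near background limit what can be said of the photoreceptor-specific genes at P1.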
